A study of Mus musculus with 2 samples.

Results

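Introns hold a large share of the accessible sites that lie away from promoters. Here they were described in mouse hippocampus by DNase-seq, an assay in which DNase I cuts DNA that is free of nucleosomes and the sequenced cut ends mark accessible chromatin. The members were chosen by measured values: a region had to hold a peak in the longer deposited peak list of both libraries. It also had to lie over 5 kb from every transcription start site (TSS) of a protein-coding transcript, inside a protein-coding gene body, and clear of every exon of a protein-coding transcript. Of 58484 regions with a peak in both libraries, 14159 met the rule, which is 24.2% (95% Wilson interval 23.9% to 24.6%; all intervals given cover counting error only). The others were 17918 promoter regions within 1 kb of a TSS, 5012 flanking regions at 1 to 5 kb, 19483 intergenic regions, 1879 exonic regions and 33 regions across a gene edge.

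The tissue came from female mice of the F1 hybrid B6CASTF1/J, a cross of the strains C57BL/6J and CAST/EiJ, at an age of 2 months. It is named a layer of the hippocampus in 1 label and hippocampus in another. There was 1 group of 2 biological replicates with no treatment, so no conditions could be compared and no p-value was computed. The replicates share a donor record and have separate biosample records, and nothing says that they came from different animals, so their spread may be technical. The tissue was not sorted, so fewer cells of a type and weaker accessibility per cell cannot be told apart.

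Distal accessible sites in introns are often enhancers or insulator sites. Enhancers are bound by sequence-specific transcription factors and can act on the host gene or on another gene nearby, while CTCF binds a long motif and anchors chromatin loops. A bound factor can shield its few base pairs from DNase I and leave a short protected stretch, a footprint, inside the accessible site. In hippocampal neurons bHLH factors of the Neurod family bind E-boxes, and AP-1, a dimer of Fos and Jun proteins, binds sites that respond to neuronal activity.

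The sequences of the strongest members are shown first, because they show how the protected bases lie within an accessible site. They are the 3 strongest members by mean rank of the peak value over both libraries in which every 31-base word occurs once in the genome. Each is the middle 200 bases of its region on the plus strand of RefSeq GRCm38.p6, and capitals mark bases inside footprints of both libraries. The Gm42906 sequence is at chr5:151368601-151368800, in intron 1 of 5 of a predicted coding gene whose place in RefSeq is inside Stard13. The C87436 sequence is at chr6:86472271-86472470, inside the gene model but in no intron of its longest coding transcript, where RefSeq has no protein-coding gene. The Itpkb sequence is at chr1:180387551-180387750, in intron 2 of 7 of the gene for an inositol trisphosphate kinase.
Gm42906: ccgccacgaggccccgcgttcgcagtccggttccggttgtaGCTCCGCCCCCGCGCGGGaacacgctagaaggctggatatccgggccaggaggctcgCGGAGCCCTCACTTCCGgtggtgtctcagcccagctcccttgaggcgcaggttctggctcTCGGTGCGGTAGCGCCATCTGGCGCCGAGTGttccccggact
C87436: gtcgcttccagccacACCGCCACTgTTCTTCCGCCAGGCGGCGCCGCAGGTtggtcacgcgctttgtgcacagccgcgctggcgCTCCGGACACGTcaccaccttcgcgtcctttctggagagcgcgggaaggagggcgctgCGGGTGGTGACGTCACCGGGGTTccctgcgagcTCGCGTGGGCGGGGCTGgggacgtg
Itpkb: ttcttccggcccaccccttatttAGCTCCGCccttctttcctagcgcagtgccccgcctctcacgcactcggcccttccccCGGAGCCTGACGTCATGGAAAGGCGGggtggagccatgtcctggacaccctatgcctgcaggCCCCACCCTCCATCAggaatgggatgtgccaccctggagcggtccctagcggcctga
Of 200 bases, 66 were in footprints of both libraries in Gm42906, 87 in C87436 and 49 in Itpkb.

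A further set shows a match to each of 5 motifs inside a footprint of both libraries, in the strongest such member, as 100 bases of the plus strand with the match in capitals. They lie in Camta1, a calmodulin-binding transcription activator (CTCF motif, chr4:151141677-151141776), Baiap2, a postsynaptic actin scaffold (AP-1, chr11:119991416-119991515), and Gm42906 again (Neurod E-box, chr5:151368726-151368825). The Mef2 match is in Dis3l2, an exoribonuclease gene (chr1:86931796-86931895), and the NFI match in 1700029H14Rik (chr8:13551226-13551325). Since the Gm42906 site holds an annotated noncoding TSS, the next strongest Neurod E-box member was added after its values were seen: Ccnd3, the gene of cyclin D3 (chr17:47511300-47511399).
Camta1, CTCF: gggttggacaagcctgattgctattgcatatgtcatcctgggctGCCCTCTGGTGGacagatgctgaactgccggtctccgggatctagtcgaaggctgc
Baiap2, AP-1: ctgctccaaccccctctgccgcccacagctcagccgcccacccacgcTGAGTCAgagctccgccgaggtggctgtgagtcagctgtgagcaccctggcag
Gm42906, Neurod E-box: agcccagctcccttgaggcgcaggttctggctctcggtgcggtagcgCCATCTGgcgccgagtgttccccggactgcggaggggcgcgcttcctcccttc
Ccnd3, Neurod E-box: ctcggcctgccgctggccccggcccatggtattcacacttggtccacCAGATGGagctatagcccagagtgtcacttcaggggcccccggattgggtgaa
Dis3l2, Mef2: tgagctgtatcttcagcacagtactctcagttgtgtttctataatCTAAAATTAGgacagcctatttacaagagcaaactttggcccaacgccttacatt
1700029H14Rik, NFI: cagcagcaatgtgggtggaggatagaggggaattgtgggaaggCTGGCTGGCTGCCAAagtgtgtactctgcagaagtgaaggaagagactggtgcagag
The members they stand for are unequal in strength. The peak value, a deposited signal whose scale is not stated, was 5.31 in replicate 1 and 5.76 in replicate 2 for Camta1, and 5.25 and 5.28 for Ccnd3. In Dis3l2 it was 2.24 and 1.33, and only 3 members had a Mef2 match in a footprint of both libraries.

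The libraries differed in how much was called. Replicate 1 had 129779 peaks over 24.5 Mb in the longer list and 227153 footprints, and replicate 2 had 71895 peaks over 14.6 Mb and 118610 footprints. The sources used here give no read depth. Inside the rule's intronic space, 14460 of 38891 peaks of replicate 1 (37.2%, interval 36.7% to 37.7%) had a partner in replicate 2, while 14409 of 16874 peaks of replicate 2 (85.4%, 84.9% to 85.9%) had one in replicate 1. The shares of promoter peaks with a partner were 74.2% and 83.8%, so the order of the classes differed between the libraries. Over all peaks of replicate 1 ranked by value and cut into 5 equal classes, partners were found for 8.06% of intronic peaks in the weakest class and 90.9% in the strongest. The promoter shares in the same classes were 29.1% and 97.4%. In replicate 2 intronic peaks were matched more often than promoter peaks, with 59.6% against 39.9% in the weakest class and 99.85% against 99.2% in the strongest. This was not particular to introns, since 59.15% of intergenic peaks in that weakest class had a partner. Over all intergenic peaks the shares were 39.86% in replicate 1 and 82.71% in replicate 2, the latter just below promoters. In the class below the strongest of replicate 1, intergenic peaks stood higher, with 68.29% against 57.65% of intronic ones. In the strongest class of replicate 1 the median value was 1.87 for intronic and 3.56 for promoter peaks.

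The members were short sites of low to moderate strength. Their median width was 220 bp, with 160 bp at the 5th and 400 bp at the 95th percentile. In replicate 1 their values ran from 0.177 to 12.3 with a median of 1.10, and in replicate 2 from 0.217 to 18.2 with a median of 0.856. Promoter regions had medians of 2.06 and 1.85, and intergenic regions had 1.03 and 0.794. The quartiles of the members (0.743 and 1.60 in replicate 1, 0.629 and 1.21 in replicate 2) thus overlapped those of every other class.

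**Figure D1:**
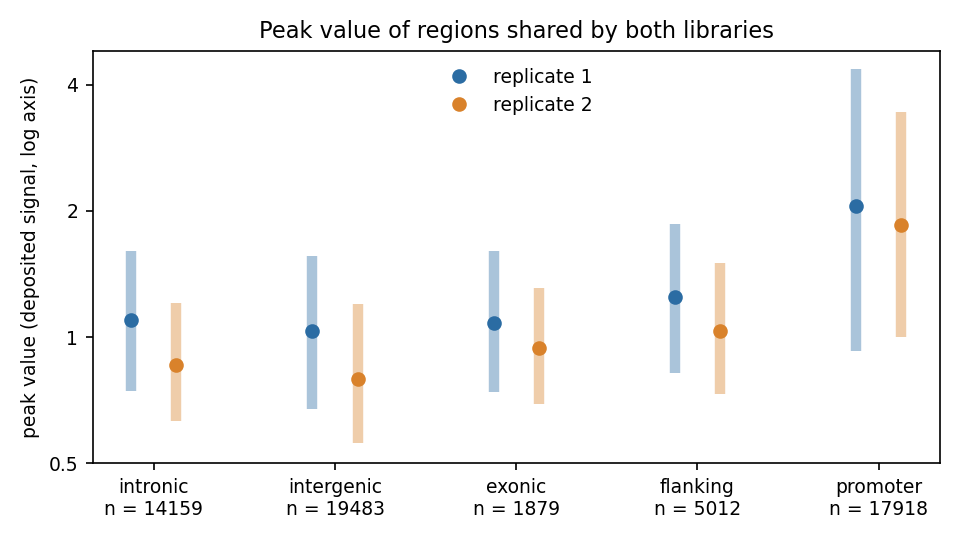
Peak value (deposited signal, log axis) of regions shared by both libraries, by class; points are medians, bars run from the lower to the upper quartile, blue is replicate 1 and orange replicate 2. The intronic members, with medians of 1.10 and 0.856, sit close to the intergenic regions and below the promoters, whose medians are 2.06 and 1.85.

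The order of the members was only in part shared by the libraries. Across the 14159 members Spearman's rho between the values of replicate 1 and replicate 2 was 0.733, against 0.940 across promoter regions; this is across regions of the same libraries, which are not replicates. The value was higher in replicate 1 for 70.9% of members, and the median log2 ratio of replicate 1 to replicate 2 was 0.28. Over all shared regions it was 0.24, on a scale between libraries that the sources do not state.

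Members held footprints about as often as shared regions in general. A footprint overlapped 90.6% of members in replicate 1 and 76.2% in replicate 2, where the shares over all shared regions were 89.7% and 78.8%. Both libraries had one in 10067 members, 71.1% (interval 70.3% to 71.8%), where the share over all shared regions was 73.8%, and 610 members had none in either. The members' share was thus below that of all regions and close to that of intergenic regions, 70.2%. In most classes of like signal the share was higher in members than in promoter regions. Intergenic regions, however, stood above members in every class but the strongest of replicate 1. In the middle of 5 equal classes of value in replicate 1, 97.5% of members (96.9% to 98.0%) and 87.3% of promoter regions (85.7% to 88.6%) held a footprint, and in replicate 2 the shares were 88.6% and 71.0%. Intergenic regions of the middle class had 98.0% in replicate 1 and 91.0% in replicate 2. In the weakest class of replicate 2 the shares of members and promoter regions were 43.3% and 44.4%. In the strongest class they were 98.4% and 98.0% in replicate 2 and 99.91% and 99.6% in replicate 1. Footprints sat near the middle of the members, where the central 20 bp held 0.396 footprints per member in replicate 1 and 0.302 in replicate 2. At 100 bp to the left of the middle the numbers were 0.0583 and 0.0321.

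Each library also has a shorter deposited peak list, and the sources used here do not say how the lists differ in their calling. In both shorter lists 6585 members had a peak, 46.5% (45.7% to 47.3%), against a background of 57.6% over all shared regions and 51.2% of intergenic ones. Another 1834 members were in neither shorter list. By library, 84.7% of members were in the shorter list of replicate 1 and 48.8% in that of replicate 2, against 85.3% and 60.7% of all shared regions.

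The label was checked against the annotation, which is GENCODE M21. Of the members, 13715 (96.9%) lay in an intron of the longest protein-coding transcript of the host gene. Of the rest, 328 members lay outside every protein-coding transcript of their host, in a part of the gene body that only other transcripts span. RefSeq placed 523 members (3.69%) outside every protein-coding gene. Among them were members of 2 very long gene models: Fgfr2, drawn as 2960.9 kb long, had 39 of its 41 members outside RefSeq coding genes, and Gm20388, drawn as 4434.9 kb long, had 59 of 72. The words "far from any TSS" hold for coding transcripts only, since 980 members (6.92%) lay within 1 kb of the TSS of a transcript that is not protein-coding. Their median values were 1.20 and 0.918, against 1.09 and 0.846 for the members without one.

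The 10 strongest members were of mixed kind. The strongest by mean rank lay in Zc3h7a, with 11.2 in replicate 1 and 18.2 in replicate 2 (mean 14.7 ± 4.94, SD, n = 2). It was 46 bp from the TSS of an annotated miRNA gene, and 95.8% of its 31-base words occur more than once in the genome. All words of the Mid1 member on chromosome X (8.36 and 6.23), a gene known to cross the pseudoautosomal boundary, were repeated, and 67.0% of those of the Gphn member (6.06 and 10.7), in the gene of the inhibitory synapse scaffold gephyrin. In Gm42906 (12.3 and 8.57) the TSS of a noncoding transcript lay inside the region, which had 70.5% GC and an observed over expected CpG ratio of 1.00. The C87436 member (9.66 and 9.45) had a CpG ratio of 1.07.

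Other strong members had no noncoding TSS within 1 kb and no repeated word. They lay in Itpkb (11.8 and 6.71), Igf1r (8.36 and 6.03), Nol4 (7.81 and 5.43) and Creb3l1 (7.38 and 5.72). Igf1r encodes the receptor of insulin-like growth factor 1, and Creb3l1 a membrane-bound bZIP factor. These 4 were higher in replicate 1, and their distances from the nearest coding TSS ran from 15.9 kb in Creb3l1 to 134.9 kb in Igf1r. Over all members 13438 (94.9%) held no repeated 31-base word, and in 63 such words made up 50% or more.

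The members were poorer in GC and CpG than promoters. Their median GC content was 50.5% and their median CpG ratio 0.240, against 64.2% and 0.781 in promoter regions. A CpG ratio above 0.6 was found in 559 members, 3.95%, and in 74.5% of promoter regions. These 559 had median values of 1.13 and 0.949, near those of all members.

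Intronic sequence that met the rule held more sites than intergenic sequence that met it, but this depended on the distance from genes. There were 17.4 members per Mb over 813.7 Mb of intron and 12.8 intergenic regions per Mb over 1520.0 Mb, a ratio of 1.36. In each library alone the ratio was between 1.32 and 1.46. At 5 to 10 kb from a TSS the order was reversed, with 16.7 members and 18.9 intergenic regions per Mb. The densities met at 20 to 50 kb, with 19.6 and 19.1. Beyond 200 kb introns held 12.3 per Mb and intergenic sequence 7.19, a ratio of 1.71. These are single totals over the genome with no test.

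**Figure D2:**
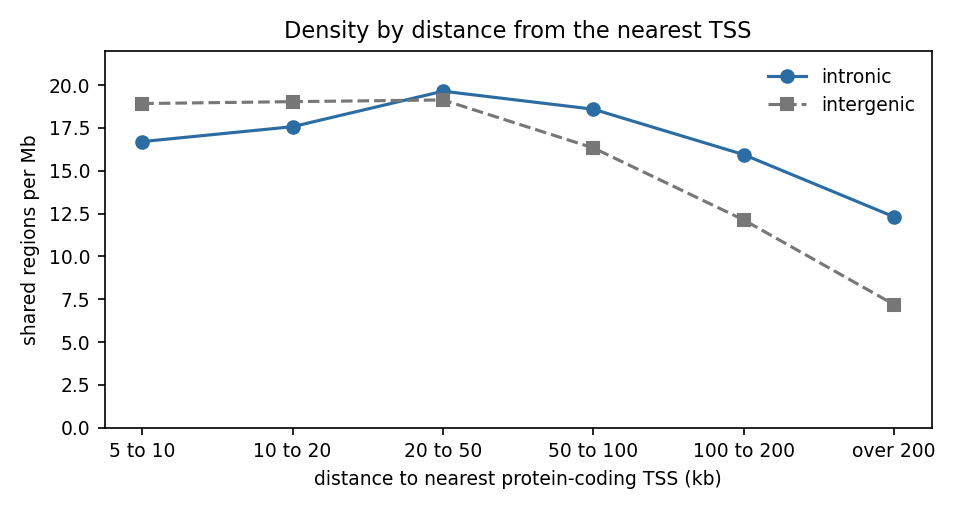
Shared regions per Mb of sequence that meets the rule (vertical axis) against the distance from the nearest protein-coding TSS in kb (horizontal axis, classes), for introns (blue circles) and intergenic sequence (grey squares). The intergenic density stays at 18.9 to 19.1 per Mb up to 50 kb and falls to 7.19 beyond 200 kb. The intronic one rises from 16.7 to 19.6 at 20 to 50 kb and then falls to 12.3. The 2 curves cross near 20 to 50 kb.

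Members far from a TSS were also weaker. From the nearest to the farthest distance class the median value fell from 1.22 to 0.911 in replicate 1 and from 0.960 to 0.702 in replicate 2. The share with a footprint in both libraries went from 76.0% to 63.7%. Value and footprint share moved together across these classes, and the part of the one in the other was not tested.

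The members were spread over introns nearly as the eligible bases were. The first intron of the longest coding transcript held 3138 members, 22.9% of those in such an intron (22.2% to 23.6%), and 22.2% of the eligible bases. Later introns other than the last held 54.2% of members and 55.6% of bases, and the last intron 6.55% and 6.36%. Next to exons the density was lower: 15.4 per Mb within 1 kb of a coding exon against 19.4 at 1 to 5 kb, and it was 15 beyond 50 kb. The rule itself lowers the first value. Members were placed by their middle and touch no exon, so bases right beside an exon count as eligible but cannot hold one. The size of this effect was not measured. Neighbouring members were a median of 44.0 kb apart, and 689 gaps (4.87%) were under 1 kb.

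The X chromosome held few members. Its introns had 188 members, 5.14 per Mb, while the autosomes had 18 per Mb with a range from 14.7 on chromosome 3 to 21.8 on chromosome 11. The X value was thus outside the range of the 19 autosomes. Chromosome Y had 0 members in 2.43 Mb, but the mice were female, so this value was fixed in advance and describes no chromatin.

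The distance rule cut through a continuous range of sites. Just inside it were members in Pitpnm2 at 5003 bp from a TSS (4.96 and 2.40), Cntn1 at 5004 bp (2.46 and 1.55) and Abcc8 at 5006 bp (0.831 and 0.846). Just outside were regions in Cacna1g at 5000 bp (2.29 and 1.11), Fgfr1 at 5000 bp (1.68 and 1.06) and Rapgef1 at 4996 bp (0.575 and 0.846). The 392 members at 5 to 6 kb had median values of 1.21 and 0.960, and the 433 otherwise like regions at 4 to 5 kb had 1.24 and 0.980.

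Motifs were searched as strings of letters on both strands in the middle 200 bp of each member and in 27192 windows of the same length moved by 1 kb to either side that touched no peak. A match is a description and not a binding site. The windows of members had 50.6% GC and 8.13% bases masked as repeats, and the moved windows had 44.8% and 22.3%. Among the 19 motifs, 4 stood highest over their moved windows: CTCF, Egr, NFI and RFX. CTCF and NFI, searched with patterns of 12 and 15 letters, are given by name.

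The CTCF motif was in 1146 members, 8.09% (7.66% to 8.55%), and in 13 moved windows, 0.0478%, a ratio of 169 that rests on those 13. Over all shared regions of the same window length 6.66% held it, with 1.43% of promoter, 9.05% of intergenic, 10.3% of flanking and 11.3% of exonic regions, so the members lay below every class but promoters. Matches lay at the middle of the member, a median of 10 bp from it. A footprint covered at least 50% of the letters of 90.2% of the 1152 matches in replicate 1 (88.3% to 91.8%) and of 73.4% in replicate 2 (70.8% to 75.9%). At the same length 40 bp to either side the shares were 2.30% and 1.48%. Footprints thus lay on the motif far more often than beside it, as in the Camta1 sequence. The ratio to moved windows was 91.4 for the peaks of replicate 1 alone, 131 for those of replicate 2 alone, and 101.1 for shared regions with windows moved by 2 kb.

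Members with the CTCF motif were stronger. Their median values were 1.32 and 1.11, against 1.07 and 0.836 without it. In the weakest of 5 equal classes of members by value in replicate 2, 3.42% held it, and in the strongest 15.4%, while in replicate 1 the shares were 3.21% and 11.1%. Of 1757 intronic peaks of replicate 1 with the motif, 66.2% (64.0% to 68.4%) had a partner in replicate 2, against 35.8% of those without, and of those of replicate 2 97.6% and 84.5% had a partner in replicate 1. The rule chose members by such partners, so these shares are a description.

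The Neurod E-box, CAGATGG, was among the commonest motifs in members. It was in 2861 of them, 20.2%, and in 4.45% of moved windows, a ratio of 4.54, with 13.7% over all shared regions and 3.35% in promoter regions. Intergenic and exonic regions were near the members, with 18.3% and 18.25%. A footprint covered 46.7% of the 3107 matches in replicate 1 (44.9% to 48.4%) and 29% in replicate 2 (27.4% to 30.6%), against 7.82% beside the match in replicate 1. Some CTCF sites contain these letters, and 93 matches overlapped a CTCF match. Without them the motif was still in 19.6% of members and 4.45% of moved windows, and 45.4% and 27.8% of matches were footprinted. The motif was in 20.9% of the weakest and 21.2% of the strongest class of members in replicate 1, and in 18.9% and 21.9% in replicate 2. The E-box CAGCTG was in 21.5% of members and 9.43% of moved windows, and in 18% of all shared regions, and 27.9% and 17.0% of its matches were footprinted. It was in 20.1% of intergenic and 23.5% of exonic regions.

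The AP-1 motif, TGANTCA, had a lower ratio and few footprints. It was in 1538 members, 10.9%, and in 5.81% of moved windows, a ratio of 1.87, with 7.94% over all shared regions. Among intergenic regions 10.5% held it, and among exonic ones 7.29%. A footprint covered 9.13% of its 1664 matches in replicate 1 (interval up to 10.6%) and 4.69% in replicate 2, near the shares 40 bp to either side, 12% and 5.32%. Split by the middle base, TGACTCA (with its complement TGAGTCA) was in 7.43% of members and 3.38% of moved windows, a ratio of 2.20, and in 5.52% of all shared regions. TGAATCA (with TGATTCA) was in 3.80% and 2.52%, a ratio of 1.51, and in 2.68% of all shared regions. The form TGACTCA had footprints on 11% and 6.0% of matches. The match shown for Baiap2 was among the 0.781% of AP-1 matches with a footprint in both libraries.

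AP-1 matches went with a difference between the libraries. Members with one had a median log2 ratio of replicate 1 to replicate 2 of 0.44, against 0.26 without. The partner share of intronic peaks of replicate 1 was 30.2% with the motif and 38.3% without, and in replicate 2 it was 90.02% with and 84.9% without. In replicate 1 the motif was in 9.25% of the weakest and 11.4% of the strongest class of members, and in replicate 2 in 12.2% and 8.51%, so its order with strength was opposite in the libraries. Such a shift was not particular to AP-1. The median log2 ratio of members with a match was 0.66 for RFX and 0.45 for Mef2, and lower, 0.20 and 0.13, for CTCF and NFI. With 1 library on each side, a difference between the mice or pieces and one between the libraries cannot be told apart.

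Among the rarer motifs, RFX, NFI, CRE and Egr had footprints on a larger share of matches than the Neurod E-box in both libraries. The interval of CRE, however, overlaps that of the E-box in both libraries, and that of RFX does so in replicate 2. RFX, GTTGCCATG, was in 199 members (1.41%, and 0.217% of moved windows), and 74.2% of its 217 matches were footprinted in replicate 1 but 33.2% in replicate 2. Members with an RFX match were higher in replicate 1, by a median log2 ratio of 0.66 against 0.28 without, and their median values were 1.503 and 0.991. NFI was in 122 members (0.862%, and 0.0772% of moved windows), with 64.5% and 41.1% of matches footprinted; its ratio of 11.2 was 7.40 with windows moved by 2 kb. CRE, TGACGTCA, was in 45 members (0.318% and 0.118%), with 62.5% and 39.6%, and Egr, GCGTGGGCG, in 27 (0.191% and 0.0147%), with 71.4% and 50%. Over all shared regions the shares were 1.23% for RFX, 0.639% for NFI, 1.09% for CRE and 0.431% for Egr. In intergenic regions they were 1.47%, 0.749%, 0.400% and 0.154%, in the same order. CRE, bound by CREB, and Egr matches were thus rarer in members than over all regions, and in promoter regions they reached 2.67% and 0.949%.

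**Figure D3:**
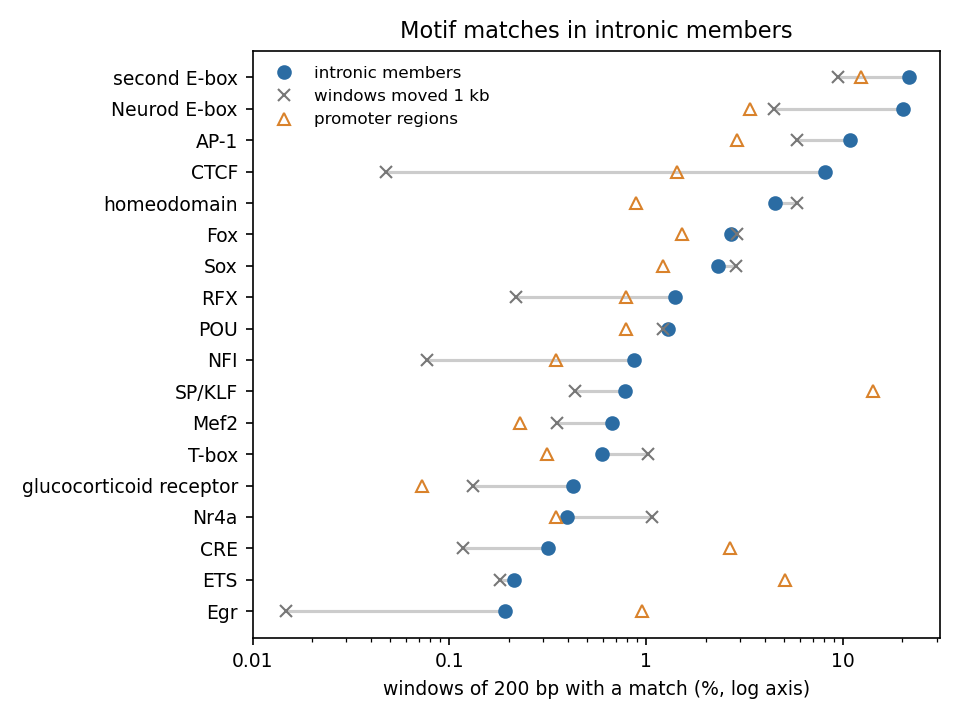
Share of 200 bp windows with a match to each motif (percent, log axis) in intronic members (blue circles), in windows moved 1 kb away (grey crosses) and in promoter regions (orange triangles). CTCF shows the widest gap between members and moved windows, 8.09% against 0.0478%, and Nr4a and T-box lie lower in members than in moved windows; "second E-box" is the E-box CAGCTG.

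The motifs of other neural factors were near or below the moved windows, or were rare, and the order of Fox and of the homeodomain motif turned in windows with no masked base. Mef2, given by name, was in 95 members (0.671%, with 0.353% of moved windows and 0.481% of all shared regions), and 13.7% and 3.16% of its matches were footprinted. Its share of intergenic regions was 0.616%. Fox, TGTTTAC, had a ratio of 0.931 with 2.19% over all regions. Sox, ACAATGG, had 0.814 with 2.09%, and the homeodomain motif TAATTA 0.775 with 3.30%. Nr4a, AAAGGTCA, was in 0.396% of members and 1.07% of moved windows, and T-box, AGGTGTGA, in 0.593% and 1.02%, with 0.388% and 0.527% over all regions. POU, ATGCAAAT, had a ratio of 1.06 with 1.24% over all regions, and its 183 members had a median log2 ratio between the libraries of 0.58.

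The last motifs are those of other factors. ETS, CCGGAAGT, had a ratio of 1.18 (1.79% of all shared regions), which was 0.794 without masked bases, and SP/KLF, GGGGCGGGG, 1.79 (5.27%). The glucocorticoid receptor motif, by name, was in 60 members and had a ratio of 3.20 (0.279%), with 18.3% and 5.0% of matches footprinted. The motif of the silencer factor REST, by name, matched 0 members and 0.00342% of all regions. Matches of different motifs overlapped seldom: the highest shares were 9.68% of NFI matches with CAGCTG, 8.07% of CTCF matches with the Neurod E-box, 6.32% of Mef2 matches with the homeodomain motif, 5.88% of T-box matches with AP-1 and 4.03% of NFI matches with the Neurod E-box. Of the members, 8988 (63.5%) held none of CTCF, AP-1, the Neurod E-box, Mef2 and NFI.

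**Figure D4:**
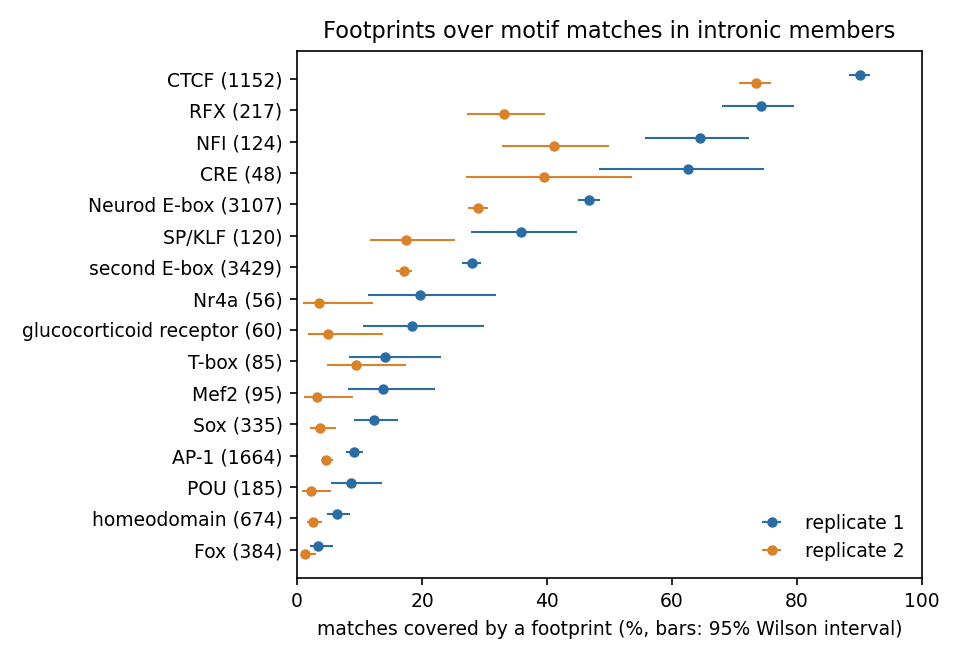
Share of motif matches in intronic members with at least 50% of their letters in a footprint (percent, with 95% Wilson intervals), for motifs with at least 40 matches (number in brackets), in replicate 1 (blue) and replicate 2 (orange). CTCF leads with 90.2% and 73.4%, the Neurod E-box lies in the middle with 46.7% and 29%, and AP-1 lies near the bottom with 9.13% and 4.69%.

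The comparison with moved windows was repeated on windows with no masked base, 7231 of members and 8439 moved. The ratio was then 95.2 for CTCF, where 7 moved windows held a match, 4.02 for the Neurod E-box, 1.76 for AP-1, 16.1 for NFI and 6.77 for RFX. It was 0.269 for Nr4a, 0.400 for T-box and 0.745 for Sox, so these stayed lower in members. For 3 motifs the ratio crossed 1: it was 1.05 for the homeodomain motif, 1.00 for Fox and 0.794 for ETS.

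Members were spread over many host genes. Of 14946 protein-coding genes with eligible intron, 5001 (33.5%) held at least 1 member and 2326 held just 1. There were 219 genes with 10 or more, and they held 3290 members, 23.2%. The genes with most members were long: after Gm20388 with 72, Dlg2 had 42, Fgfr2 41, Lsamp 38, Nrxn3 32, Asic2 and Rbfox1 31 each, and Macrod2 and Tenm2 30 each. Dlg2 is a postsynaptic scaffold, Lsamp an adhesion protein of the IgLON family, Nrxn3 a presynaptic neurexin, Tenm2 a teneurin and Rbfox1 a splicing regulator. Asic2 is an acid-sensing channel.

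Per 100 kb of eligible intron, where all genes together had 1.74 members, Macrod2 had 1.54, Lsamp 1.76, Nrxn3 2.04, Rbfox1 2.12, Dlg2 2.18, Tenm2 2.49, Asic2 3.002, Fgfr2 3.28 and Gm20388 3.72. Within Dlg2, 30 of the 42 members had a footprint in both libraries, and their median values were 1.05 and 0.779. In Macrod2 the medians were 0.650 and 0.573, and 15 of 30 had such a footprint. Replicate 1 had 109 peaks in the eligible introns of Dlg2 and replicate 2 had 47.

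The densest hosts were another set of genes. Among the 1897 genes with at least 100 kb of eligible intron the median was 1.62 members per 100 kb, with 0 at the 10th and 3.78 at the 90th percentile, and 208 genes (11%) had none. Ssbp3 had 9.13, Fhad1 8.84, Gse1 8.76, Mical2 8.31, Prkag2 7.86, Slc24a4 7.75, Macrod1 7.71, Vwf 7.58 and Sipa1l3 7.44. Mical2 oxidises actin, Prkag2 is a subunit of the AMP-activated kinase, Slc24a4 exchanges sodium for calcium and Vwf encodes the von Willebrand factor of endothelial cells. Of these dense hosts, Vwf alone had no promoter peak in either library, and 8 of its 9 members had a footprint in both. Gse1 had 28 members with medians of 1.49 and 1.52.

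At the other end were long genes with no member. The longest by eligible intron were Malrd1 (717.7 kb), Fstl5 (615.3 kb), Dach2 on X (527.3 kb), Skint5 (512.2 kb) and Foxp2 (508.3 kb). Foxp2, a forkhead factor of neurons, had 10 peaks in replicate 1 and 2 in replicate 2, none of them shared, and a promoter peak in both libraries. Fstl5 had 10 and 1. Malrd1 and Skint5 had no promoter peak in either library.

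Host genes often had an accessible promoter, which the rule did not use. A promoter peak within 1 kb of a TSS was present in both libraries in 68.7% of genes with eligible intron and in 79.8% of hosts (78.6% to 80.8%). It was present in 63.2% of genes with 0 members, 75.8% with 1, 80.3% with 2 to 4 and 90.3% with 5 or more. Long genes have more room for members, so genes of like length were compared. Among genes with over 200 kb of eligible intron the share was 70.7% of the 41 with 0 members (55.5% to 82.4%) and 91.5% of the 506 with 5 or more (88.7% to 93.6%). With 100 to 200 kb it was 71.9% of 167 genes and 89.7% of 184. With 50 to 100 kb the shares were closer, 75.1% (71.7% to 78.3%) and 84.3% (74.0% to 91.0%), and the intervals overlap. With 20 to 50 kb the share was 67.15% with 0 members (65.1% to 69.1%) and 78.2% with 2 to 4 (74.0% to 81.9%). It was 89.5% with 5 or more there, but over 19 genes only (68.6% to 97.1%). Under 20 kb it was 60.5% with 0 members, 70.6% with 1 and 62.2% with 2 to 4. These are genes of the same libraries and not replicates.

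Gene lists were described by members per 100 kb of eligible intron, beside 1.74 for all genes. Postsynaptic scaffolds and kinases had 210 members in 19 of 25 genes (2.22 per 100 kb), led by Dlg2 and by Dlgap2, another scaffold, with 23. Camk2g had none. Voltage-gated calcium and sodium channels had 111 in 20 of 23 genes (2.36), with 18 in Cacna2d3 and 16 in Cacna1e and none in Scn11a, a sodium channel of sensory neurons. Neuronal RNA-binding proteins had 97 in 12 of 21 genes (2.04), of which Rbfox1 held 31 and Rbfox3, the gene of the neuronal marker NeuN, 16.

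Receptor lists were lower. Glutamate receptors had 124 members in 19 of 24 genes (1.39 per 100 kb), with 17 in Grid1 and 14 in Grik4 and none in Grin2d. GABA-A receptor subunits had 29 in 8 of 16 genes (1.22), with 10 in Gabrb1 and 5 in Gabrg3. Potassium channels had 133 in 23 of 26 genes (1.56), with 17 in Kcnma1, 14 in Dpp6 and none in Kcnh5. Synaptic adhesion genes held the most members of any list, 546 in 45 of 48 genes, but over 38356.6 kb of intron this was 1.42. Cdh10 had none.

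The other neuronal lists lay near the value of all genes. Presynaptic release genes had 104 members (1.81 per 100 kb), with 14 in Erc2, 12 in Cadps and none in Syn1. Neural transcription factors had 228 (1.95), with 29 in Auts2 and 22 in Zfhx3 beside the empty Foxp2, and axon guidance genes 184 (1.75), with 19 in Slit3, 15 in Robo1 and none in Ntn1.

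**Figure D5:**
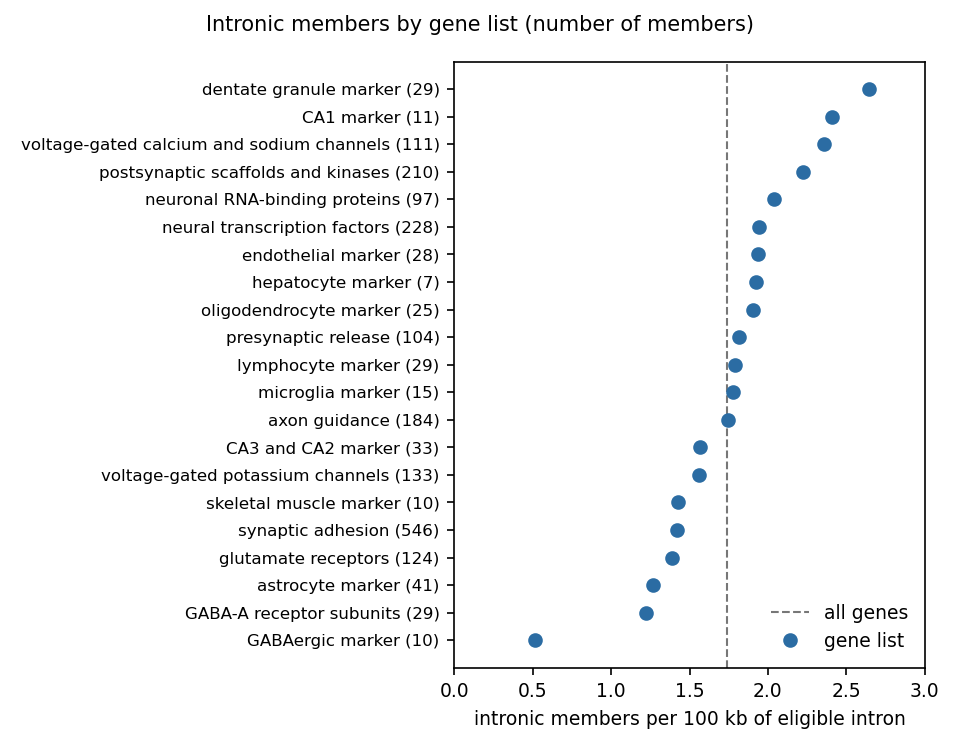
Intronic members per 100 kb of eligible intron for each gene list (points, number of members in brackets) and for all genes (dashed line at 1.74). The lists run from 0.517 for GABAergic markers to 2.65 for dentate granule markers, and 13 of the 21 lists lie to the right of the line.

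Marker lists of cell types were small, and leaving out 1 long gene changed their order. Dentate granule cell markers had 29 members (2.65 per 100 kb), of which Pdzd2 held 15 and Maml2 6. Without Pdzd2 the value was 1.85, and Prox1 and Dsp had none. CA1 markers had 11 (2.41), with 3 each in Fibcd1 and Man1a and none in Dcn. CA3 and CA2 markers had 33 (1.57), with 14 in Grik4 and 8 in Cntn4, and 2.24 without Cntn4.

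GABAergic markers had the lowest value, 10 members and 0.517 per 100 kb. Erbb4, a neuregulin receptor of interneurons, held 2 members in 1058.8 kb, Reln, which encodes reelin, 4 in 444.1 kb, and Gad2, a GABA-synthesising enzyme, none. Without Erbb4 the value was 0.915. Astrocyte markers had 41 (1.27), of which Npas3 held 12 and Gpc5 7, and 1.87 without Gpc5.

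Lists of other cells lay within the range of the neuronal ones. Oligodendrocyte markers had 25 members (1.90), with 9 in Pde4b and 8 in Mbp, the gene of myelin basic protein, where medians were 1.76 and 1.37, and none in Ugt8a. Microglia markers had 15 (1.78), with 3 each in Cx3cr1 and Dock8, and the strongest in Cx3cr1, the fractalkine receptor, reached 6.08 and 6.72. Endothelial markers had 28 (1.94), with 9 in Vwf, 6 in Flt1 and none in Abcb1a. Lists from outside the tissue lay in the same range: lymphocyte 29 members (1.79), with 9 in Bach2, 7 in Skap1 and none in Ikzf1, hepatocyte 7 (1.93), with 3 each in Cps1 and Hnf4a and none in Abcb11, and skeletal muscle 10 (1.43), with 3 each in Mybpc1 and Ryr1 and none in Myom2. A promoter peak in both libraries was found in 1 of 12 hepatocyte genes and in 23 of 25 scaffold genes, against 68.7% of all genes with eligible intron. Lists of cells of the tissue were mixed: 1 of 13 endothelial, 5 of 13 microglia, 8 of 14 oligodendrocyte and 8 of 11 astrocyte genes. The lymphocyte and muscle lists had 4 of 11 and 3 of 12. Whether a member acts on its host gene was not measured.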

How the data were processed

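DNase-seq libraries of 2 replicates were used. Peaks, footprints and bases with their FDR were deposited by the authors separately for each library on mm10 (GRCm38), as the texts deposited beside them say. Aligner, callers and versions: not given in the sources used here. The deposited peak value is a signal in whole multiples of 1 step per library (100.0% within 0.05 steps); its scale is not stated. The deposited base lists hold FDR values (q-values), listed under 0.05, and the deposited footprint lists hold a constant 0.01 that was taken for an FDR limit; neither value was used in a result given here.

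Peaks were merged at an overlap of 1 bp, a region's value being its highest peak, and classified on GENCODE M21. Sequence was RefSeq GRCm38.p6. Densities use sequence that meets the rule outside assembly gaps. A host gene is the smallest that contains the member. A footprint or motif share is over members or matches, with 95% Wilson intervals. No source used here says how reads of the CAST/EiJ allele were placed.

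Members, 21 gene lists and 19 motifs were chosen with earlier results of these data known. Named were the 10 genes with most members, the 10 densest with at least 100 kb of eligible intron, per list the 2 genes with most members and the first in alphabetical order with at least 20 kb and none, the 10 strongest members, and 3 regions on either side of the distance limit. No sequence of chromosome 18 is printed, and some genes that this rule names are not reported here. The longest genes with no member, Prox1, the split of the AP-1 motif, the E-box without CTCF overlaps and by its next base, unmasked windows, and lists without their longest gene were chosen after values were seen. Of 445 listed symbols, 1 was not a protein-coding gene of the annotation. Procedures were tested on simulated data. Alternatives are given in the closing section. Tools were NumPy 2.4.6, numba 0.67.0, pandas 2.3.3, matplotlib 3.10.9 and SciPy 1.17.1 under Python 3.11.15.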

Additional observations from a re-analysis of the deposited data

How the results depend on the processing

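With 1 group of 2 libraries, values were compared with their spread between the libraries taken alone (1 SD), counts with a limit of 1.5 times, and rho with its 95% interval over members. RefSeq gene bodies were an alternative added after seeing the data. With the shorter peak lists there were 6593 members, 19.6% of shared regions, a density ratio of 1.24, 90.5% with a footprint in both libraries, 21.9% in the first intron, 71.0% of hosts with a promoter peak, and a rho of 0.713. A reciprocal overlap of 50% gave 78.2% with a footprint, 22.3% in the first intron and a rho of 0.744. Equal numbers of strongest peaks gave 78.5%, 77.0% of hosts with a promoter peak, ratios of 205 for CTCF and 4.31 for the Neurod E-box, and a rho of 0.676. With the TSS of any transcript the share was 19.2%. A promoter of 500 bp gave 77.7% of hosts. Windows of 300 bp gave ratios of 123 for CTCF and 3.47 for the Neurod E-box, and windows moved by 2 kb gave 101.1 for CTCF. The causes were not tested.

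With each library left out in turn, members numbered 16796 to 38783, their share was 23.7% to 30.1%, the density ratio 1.32 to 1.46, the share with a footprint 68.9% to 74.0%, the first intron 22.9% to 23.6%, and hosts with a promoter peak 80.9% to 81.8%. Motif ratios were 91.4 to 131 for CTCF, 1.68 to 2.35 for AP-1, 4.09 to 4.41 for the Neurod E-box, 1.48 to 2.09 for Mef2 and 8.78 to 15.3 for NFI. The count of members, which was 38783 without replicate 2, rests most on the choice of libraries. The other 90 of 120 values moved by less than these limits. The values with a library left out are among the 120 and also set the limit of 1 SD, so this count does not measure stability. With a library left out, footprint and promoter shares need the feature in the remaining library only. Gene list densities stayed on their side of that of all genes under each peak list setting run for them, apart from axon guidance and the oligodendrocyte, microglia, endothelial, lymphocyte and hepatocyte markers. Leaving out the longest gene is not among these settings. It took the CA3 and CA2 markers from 1.57 to 2.24 and the astrocyte markers from 1.27 to 1.87, across the 1.74 of all genes. Paired analysis was not possible because there was 1 group. Read depth is not given, so sites found in 1 library only may be under the detection limit of the other.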
